A study of Homo sapiens with 10 samples.

Results

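The genes described here are 29 genes of sterol and fatty acid synthesis and of its control, chosen by name from the deposited transcript annotation. They are 29 of 57110 gene identifiers and hold 96 of 99493 transcripts, none of them under an identifier that joins several genes. Each transcript's level was summed per gene. By role, 7 belong to the mevalonate arm, 11 to the sterol arm, 4 to regulation and sterol transport and 7 to the fatty acid arm.

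RNA was measured by nanopore sequencing, which reads single molecules through protein pores, in 7 human ovarian cancer cell lines to benchmark a transcript quantification package. COV362, COV504, OVKATE, OVMANA, OVTOKO and SK-OV-3 had 1 library each, run on a PromethION, and IGROV-1 had 4, of which 2 were run on a PromethION and 2 on a MinION, an instrument of lower output. All groups are untreated as far as the labels say, and share total RNA as the molecule, a column extraction and a ligation library kit with end repair of 30 min. The labels do not state culture medium, serum, density or passage. Each line is represented by a single line stock, and nothing in the labels says that the IGROV-1 replicates came from separate cultures, so p-values measure only the spread between these libraries, which may be technical.

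Cells build cholesterol from acetyl-CoA through the mevalonate pathway, which leads to farnesyl diphosphate, and then through squalene and lanosterol to cholesterol. Fatty acids are built from the same acetyl-CoA, which ATP citrate lyase makes from citrate, and are then elongated and desaturated. Genes of both routes are known targets of the transcription factors SREBP-1 and SREBP-2 (genes SREBF1 and SREBF2). These are made as membrane proteins of the endoplasmic reticulum, are held there by INSIG proteins when sterols are plentiful, and are cut to release the active factor when sterols are scarce. Promoters bound by SREBPs often carry a sterol response element together with CCAAT boxes, which bind NF-Y.

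Promoter letters were examined first, because shared control by SREBPs is what links these genes in textbooks. The RefSeq promoter table (GRCh38.p14), which covers 250 bases before to 50 after a start site, held 25 of the 29 genes. ACAT2, FDFT1, SQLE and FASN had no entry. On either strand, CCAAT was found in promoters of 20 of the 25 genes (80.0%), against 43.3% of the 9426 genes with an entry that were tested for level, and 34.6% of all 35116 promoters. GGGCGG, the core of Sp1 sites, was in 24 of 25 (96.0%), against 78.3% of the tested genes and 45.0% of all promoters. TCACNCCAC, a form of the sterol response element, was in 1 of 25 (4.0%), against 1.52% of the tested genes and 1.13% of all promoters. That single match was in SREBF2 and starts 133 bases before the start site on the forward strand. These are matches of letters and not measured binding. Forms of the sterol response element that differ from TCACNCCAC were not searched, so the share of genes with any such element was not measured. Genes with several start sites in the table had more than 1 window in which a match could fall.

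The sequences below are shown 5′ to 3′, each on the strand of its gene, with TCACNCCAC and CCAAT (or its reverse complement ATTGG) in capitals. Each stops before the first base of any deposited transcript of its gene. SREBF2 (chr22:41832855-41833078, plus strand) is shown for the sterol response element. MSMO1 (chr4:165327419-165327622, plus), NSDHL (chrX:152830813-152830966, plus) and MVD (chr16:88663111-88663341, minus) are shown as genes with 3 or more CCAAT boxes, and in NSDHL a pair of boxes overlaps. ACLY (chr17:41919023-41919272, minus) and SCD (chr10:100346983-100347123, plus) are shown because their level was called different in all 6 lines, as described further on.
SREBF2: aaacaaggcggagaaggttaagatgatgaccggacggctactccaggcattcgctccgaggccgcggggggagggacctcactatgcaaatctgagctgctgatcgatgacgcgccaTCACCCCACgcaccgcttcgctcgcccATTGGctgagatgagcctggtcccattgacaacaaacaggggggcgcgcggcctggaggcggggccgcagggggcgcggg
MSMO1: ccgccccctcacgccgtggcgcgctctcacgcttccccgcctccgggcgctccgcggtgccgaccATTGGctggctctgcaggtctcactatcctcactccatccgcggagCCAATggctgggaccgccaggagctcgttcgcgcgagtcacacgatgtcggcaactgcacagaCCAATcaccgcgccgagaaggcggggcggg
NSDHL: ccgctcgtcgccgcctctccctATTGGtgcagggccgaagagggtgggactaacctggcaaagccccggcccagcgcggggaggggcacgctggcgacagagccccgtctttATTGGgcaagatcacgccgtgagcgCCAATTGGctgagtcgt
MVD: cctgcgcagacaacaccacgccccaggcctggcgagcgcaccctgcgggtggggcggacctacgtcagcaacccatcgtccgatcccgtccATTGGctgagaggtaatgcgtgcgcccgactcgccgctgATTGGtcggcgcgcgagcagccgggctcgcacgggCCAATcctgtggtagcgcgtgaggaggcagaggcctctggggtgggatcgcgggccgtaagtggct
ACLY: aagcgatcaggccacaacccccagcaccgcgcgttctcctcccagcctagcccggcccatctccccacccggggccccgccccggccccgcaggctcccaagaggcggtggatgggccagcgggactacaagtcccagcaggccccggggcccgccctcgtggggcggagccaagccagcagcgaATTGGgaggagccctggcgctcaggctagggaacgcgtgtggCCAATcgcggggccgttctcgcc
SCD: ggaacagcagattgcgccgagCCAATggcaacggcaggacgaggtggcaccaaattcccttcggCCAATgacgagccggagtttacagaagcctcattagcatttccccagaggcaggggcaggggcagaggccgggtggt

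Levels are given in CPM, the estimated count of a gene scaled to a common library total. They are not divided by transcript length, so levels of different genes are not compared. The libraries held 1729782 to 3666224 counts, and 28 or 29 of the 29 genes had at least 1 count in each. ELOVL6 had 0 counts in OVMANA and HSD17B7 had 0 counts in SK-OV-3. Mitochondrial ribosomal RNA took 9.13% and 10.9% of the counts of the IGROV-1 PromethION libraries and 1.01% to 3.31% elsewhere, which lowers CPM of all other genes there. The fitted comparisons use TMM scaling, which corrects for such a difference in composition, and leaving that RNA out ended 2 of the calls described below, FDPS in SK-OV-3 and SREBF2 in OVMANA, and reversed none. Of the epithelial markers, KRT18 was present in every library, whereas CDH1 was at 0 in all 4 IGROV-1 libraries and EPCAM was at 0 to 1.54 CPM there. PAX8, listed with WT1 and MUC16 as a marker of Mullerian epithelium, lay between 84.1 and 340 CPM in all libraries. The 3 markers together summed to 84.1 CPM in SK-OV-3, so WT1 and MUC16 added almost nothing there, and to at most 353 CPM (OVMANA). Summed markers of blood cells reached 12.4 CPM (OVKATE), of hepatocytes 0.309 CPM, of endothelium 25.8 CPM (COV504) and of fibroblasts 306 CPM (SK-OV-3). CD3E, HBB, ALB and CYP7A1 were at 0 in all libraries. The part of other cell types in the results was not tested.

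Together the 29 genes took more of the RNA in COV504, COV362, OVKATE and SK-OV-3 than in IGROV-1. Their summed level was 3856 CPM in COV504, 3726 in COV362, 3056 in OVKATE and 2835 in SK-OV-3, against 2009 and 1827 in the IGROV-1 PromethION libraries, 2054 and 1977 in the MinION libraries, 1820 in OVMANA and 1662 in OVTOKO. The first 4 lines lay above all IGROV-1 libraries on all 3 scales examined, which were CPM, CPM without mitochondrial ribosomal RNA and TMM-scaled CPM. With TMM scaling the sums were 3787 in COV504, 3979 in COV362, 2571 in OVKATE and 2508 in SK-OV-3, against 1989 ± 128 (SD, n = 2) in IGROV-1 PromethION, so that COV362 and not COV504 was then the highest. In these bulk samples fewer expressing cells and less RNA per cell cannot be told apart.

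The fatty acid arm separated COV504 (1653 CPM), COV362 (1573) and SK-OV-3 (1075) from the other libraries, which lay between 556 and 668 CPM. In the mevalonate arm OVKATE (1096 CPM), COV362 (940) and COV504 (739) lay above the others (375 to 528 CPM). In the sterol arm OVKATE (1232 CPM), SK-OV-3 (1060), COV504 (1058) and COV362 (973) lay above the IGROV-1 libraries (622 to 764 CPM), OVMANA (573) and OVTOKO (469). These groups of high lines were the same with TMM scaling, but their order was not: COV362 then led the mevalonate arm (1004, against 922 in OVKATE), and the sterol arm was at 1036 to 1039 in OVKATE, COV362 and COV504. The 4 genes of regulation and transport summed to 407 CPM in COV504 and to 149 to 240 CPM in the other libraries. A sum follows its most abundant members, and without SCD the sum over the remaining genes was 3359 CPM in COV504, 2973 in OVKATE, 2851 in COV362 and 2313 in SK-OV-3, against 1809 and 1622 in IGROV-1 PromethION.

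**Figure D1:**
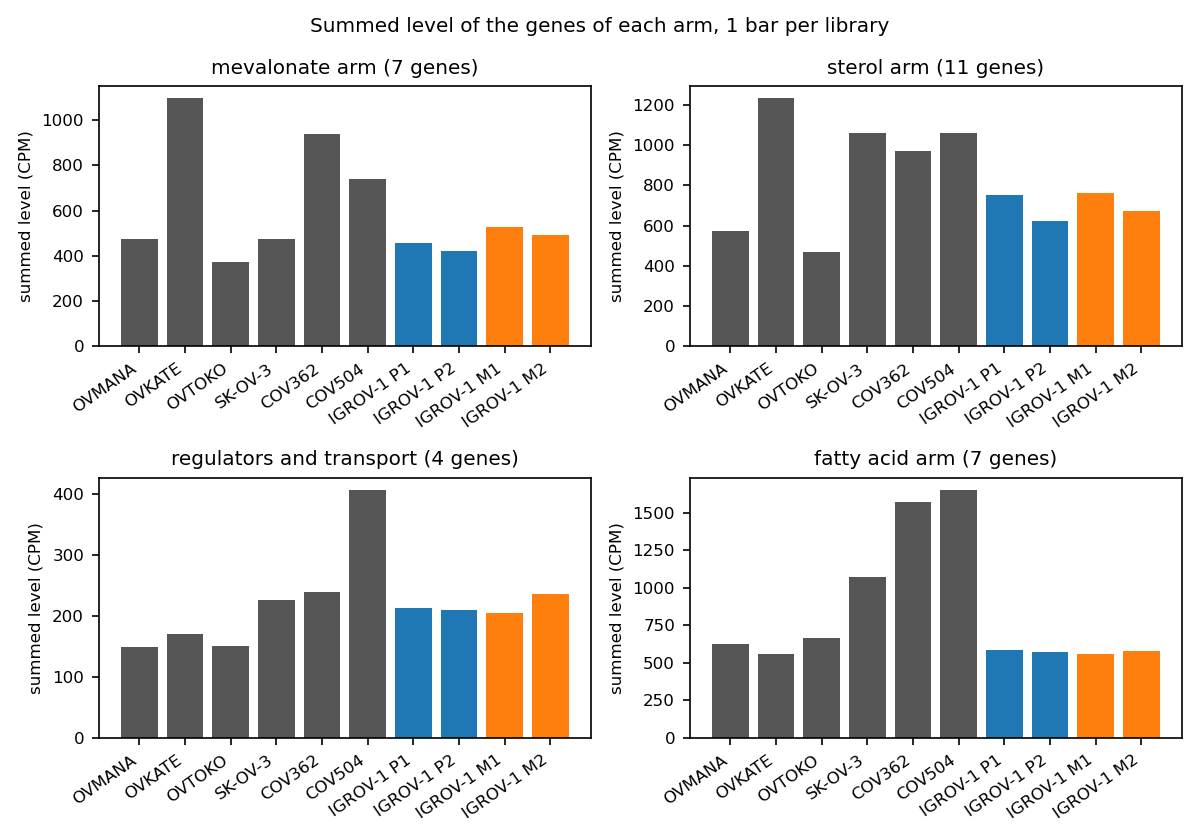
Summed level in CPM (vertical axis, from 0) of the genes of each arm, 1 bar per library: grey for the 6 other lines, blue for the IGROV-1 PromethION libraries (P1, P2) and orange for the MinION libraries (M1, M2). COV504 and COV362 stand above the rest in the fatty acid arm (1653 and 1573 CPM); OVKATE has the tallest bar of the mevalonate and sterol arms in CPM (1096 and 1232), but COV362 led the mevalonate arm with TMM scaling.

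Each line was then compared with IGROV-1 on the PromethION by edgeR's quasi-likelihood test with Benjamini-Hochberg adjustment over 13030 genes, and a gene was called at an adjusted p under 0.05. The fit takes the spread from the IGROV-1 pairs alone, with each lone library assumed to vary like them, and the 6 comparisons share the IGROV-1 libraries. In one test per gene for any difference among the 7 lines, 27 of the 29 genes were called (93.1%), against 81.3% of all genes tested. The exceptions were MVK (edgeR adjusted p = 0.0637) and LSS (edgeR adjusted p = 0.0782). Members had a median level of 70.8 CPM and all genes tested one of 19.3 CPM, and the part of this difference in counting depth in the shares of calls was not tested. The median log2 range over the 7 lines was 2.33 for the members and 2.12 for all genes tested.

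By edgeR, COV504 and OVKATE had the most calls. In COV504, 18 members were higher than in IGROV-1 and 3 lower (21 of 29, 72.4%), where the background was 43.5% of all genes, with 24.0% higher and 19.6% lower. In OVKATE, 15 were higher and 5 lower (69.0%), with a background of 49.2% (26.8% higher, 22.4% lower). The median log2 fold change of the members was 0.77 in COV504 and 0.71 in OVKATE, against 0.00 and 0.01 over all genes.

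By edgeR, the share of members called lay nearer to that of all genes in the 4 other lines. SK-OV-3 had 9 members higher and 6 lower (51.7%; background 41.8%, with 22.0% higher and 19.8% lower). COV362 had 11 higher and 2 lower (44.8%; background 42.5%, with 23.7% higher and 18.8% lower). OVMANA had 5 higher and 8 lower (44.8%; background 35.4%, with 18.9% higher and 16.5% lower). OVTOKO had 4 higher and 8 lower (41.4%; background 34.1%, with 18.2% higher and 15.9% lower). Median log2 fold changes of the members were 0.10 in SK-OV-3, 0.38 in COV362, -0.17 in OVMANA and -0.10 in OVTOKO, and those of all genes lay between -0.01 and 0.04. The medians of OVMANA and SK-OV-3 were the same with ELOVL6 and HSD17B7 set to the bound that a count of 0 allows.

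With DESeq2 the order of the lines was another. It called 10 members in COV362 (34.5%; background 12.2%), 9 in SK-OV-3 (31.0%; background 12.8%), 8 in COV504 (27.6%; background 13.6%), 7 in OVKATE (24.1%; background 16.2%), 7 in OVMANA (24.1%; background 11.1%) and 5 in OVTOKO (17.2%; background 10.1%). COV362 and SK-OV-3 thus stood furthest above the share of all genes, and OVKATE and OVTOKO the least.

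Of the 94 calls by edgeR, 46 were also made by DESeq2 and held under every alternative that was run. They numbered 10 of 13 in COV362, 9 of 15 in SK-OV-3, 8 of 21 in COV504, 7 of 20 in OVKATE, 7 of 13 in OVMANA and 5 of 12 in OVTOKO. No call was reversed under any alternative. By member, EBP kept all 5 of its calls and TM7SF2 both of its calls. ACAT2 kept 5 of 6, SCD 4 of 6, and FASN, FADS2 and SQLE 4 of 5 each. FADS1 kept 3 of 5, ACLY 3 of 6, and PMVK, IDI1 and INSIG1 2 each. FDFT1, FDPS, MSMO1, SC5D, ELOVL6 and SREBF2 kept 1 each. The other members kept none of their calls. Calls that DESeq2 did not make are marked where they are described below. Leaving out at least 1 IGROV-1 library also ended the calls of ACLY, DHCR7, FADS2, SCD and SREBF2 in OVMANA, FADS1, ACAT2, INSIG1 and ACACA in OVKATE, FADS1 and SCD in OVTOKO, FDPS, IDI1 and MSMO1 in SK-OV-3, and DHCR7, FDFT1, LSS, MVD, MVK and SQLE in COV504. Without MinION replicate 1, which ended most of these, the calls numbered 8 in OVMANA (27.6%; background 24.1%), 16 in OVKATE (55.2%; background 41.0%), 10 in OVTOKO (34.5%; background 22.2%), 12 in SK-OV-3 (41.4%; background 32.0%) and 16 in COV504 (55.2%; background 33.7%).

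**Figure D2:**
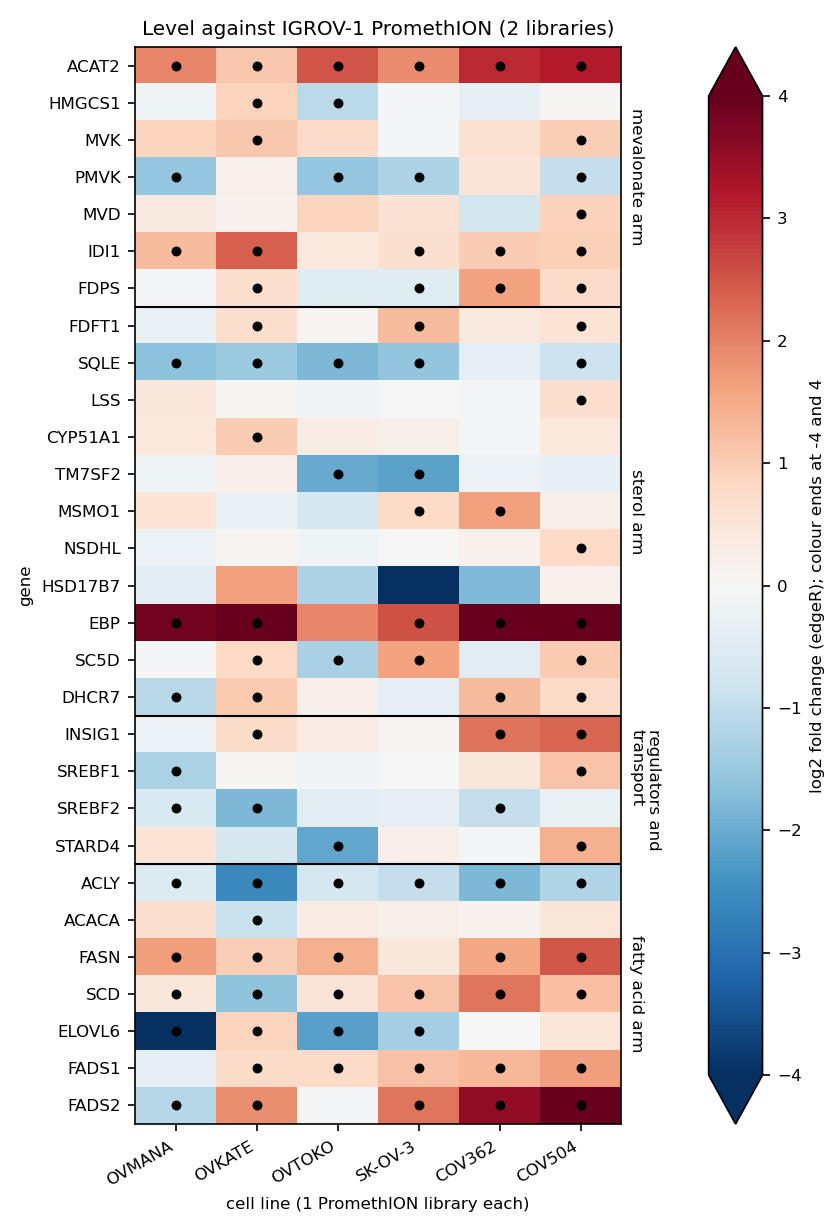
Log2 fold change (colour, scale at the right, cut at -4 and 4) of each of the 29 genes (rows, by arm) in each of 6 lines (columns) against IGROV-1 PromethION; a dot marks an edgeR adjusted p under 0.05. EBP is called higher in 5 lines, ACAT2 is called higher and ACLY called lower in all 6, and the dark blue fields of ELOVL6 in OVMANA and HSD17B7 in SK-OV-3 are genes with a count of 0 there.

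In the mevalonate arm, ACAT2 and IDI1 rose most often and PMVK fell most often. ACAT2, the cytosolic thiolase that joins acetyl-CoA units, was measured at 16.7 and 10.7 CPM in the IGROV-1 PromethION libraries and at 35.6 (OVKATE), 50.8 (OVMANA), 60.3 (SK-OV-3), 75.2 (OVTOKO), 107 (COV362) and 129 CPM (COV504). The MinION libraries gave 16.6 and 19.8 CPM, so all 4 IGROV-1 libraries lay below every other line. The log2 fold changes ran from 1.07 ± 0.28 (SE) in OVKATE (edgeR adjusted p = 0.0127) to 3.16 ± 0.23 in COV504 (edgeR adjusted p = 2.53e-05), and the call in OVKATE was not made by DESeq2 or without MinION replicate 1. ACAT2 overlaps TCP1 (162 to 392 CPM) on the opposite strand, and whether counting used the strand is not given in the sources used here.

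IDI1, the isopentenyl diphosphate isomerase, was at 65.8 and 53.3 CPM in IGROV-1 PromethION, 34.9 and 34.6 CPM on the MinION, 76.3 in OVTOKO, 108 in SK-OV-3, 118 in COV362, 122 in COV504, 137 in OVMANA and 386 in OVKATE. OVKATE stood above all other libraries. The log2 fold change there was 2.40 ± 0.17 (SE; edgeR adjusted p = 1.87e-05), in OVMANA 1.27 ± 0.18 (edgeR adjusted p = 0.00103), and the calls in COV362, COV504 and SK-OV-3 (log2 fold changes 1.02, 0.96 and 0.63) were not made by DESeq2.

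PMVK, the phosphomevalonate kinase, split the lines into high and low. It was at 101 and 106 CPM in IGROV-1 PromethION, 123 and 99.2 CPM on the MinION, 142 in OVKATE and 144 in COV362, but at 56.5 in COV504, 51.7 in SK-OV-3, 34.2 in OVMANA and 33.5 in OVTOKO. The lines of the low group did not overlap with the others. PMVK fell by 1.54 ± 0.25 (SE) on the log2 scale in OVMANA (edgeR adjusted p = 0.00181) and by 1.55 ± 0.25 in OVTOKO (edgeR adjusted p = 0.00204). The smaller changes in SK-OV-3 (-1.23) and COV504 (-0.95) were called by edgeR and not by DESeq2.

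FDPS makes farnesyl diphosphate, the branch point to sterols and to prenylated proteins. It was at 178 and 160 CPM in IGROV-1 PromethION, 224 and 214 CPM on the MinION, 496 in COV362, 330 in OVKATE, 304 in COV504, 155 in OVMANA, 141 in SK-OV-3 and 113 in OVTOKO. The rise in COV362 (log2 fold change 1.60 ± 0.15 SE, edgeR adjusted p = 0.000122) held with DESeq2, and the rises in COV504 (0.77) and OVKATE (0.67) did not, with DESeq2 adjusted p = 0.0543 and 0.0966. The fall in SK-OV-3 (-0.49, edgeR adjusted p = 0.0474) was called in 1 of 11 alternatives.

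The other genes of the arm moved less. HMGCS1, which makes HMG-CoA, lay between 29.5 CPM (OVTOKO) and 150 CPM (OVKATE), with 63.2 and 67.4 CPM in IGROV-1 PromethION. Its log2 fold changes in these lines were -1.07 ± 0.21 (SE) and 0.90 ± 0.16, both called by edgeR and neither by DESeq2. MVK, the mevalonate kinase, lay between 10.7 and 29.7 CPM over all libraries, and MVD, the mevalonate diphosphate decarboxylase, between 9.40 and 32.5 CPM. MVK was called higher in COV504 and OVKATE and MVD in COV504, none of these by DESeq2. MVK shares its locus with MMAB on the opposite strand (20.1 to 81.5 CPM).

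In the sterol arm EBP differed most. EBP, the sterol isomerase that moves a double bond within the ring system, is at chrX:48521158-48528716 (GRCh38, plus strand) and has a single deposited transcript. That transcript is EBP-205, of 6 that GENCODE lists for the gene. EBP-205 starts at base 48521158, upstream of the RefSeq start site at 48521808. How reads of the EBP transcripts without deposited values were counted was not tested. EBP was at 0.854 and 1.29 CPM in IGROV-1 PromethION and 0.546 and 0.927 CPM on the MinION. It was at 4.05 in OVTOKO, 7.60 in SK-OV-3 and 15.5 in OVMANA, but at 125 in COV362, 178 in COV504 and 216 in OVKATE. COV362, COV504 and OVKATE thus formed a high group that lay far above all other libraries. In CPM, OVKATE was 202-fold above IGROV-1 PromethION, with a 95% counting interval of 83.5 to 487, wide because IGROV-1 had few EBP reads. With TMM scaling, which the fold changes below use, the levels were 182 in OVKATE against 0.884 and 1.34 in IGROV-1 PromethION. Log2 fold changes were 7.29 ± 0.28 (SE) in OVKATE, 7.23 ± 0.28 in COV504 and 6.85 ± 0.29 in COV362, with edgeR adjusted p of 1.32e-06, 1.75e-06 and 2.36e-06. They were 3.85 ± 0.44 in OVMANA and 2.54 ± 0.52 in SK-OV-3, and 1.95 ± 0.64 in OVTOKO, where edgeR's adjusted p of 0.0527 missed the threshold.

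SQLE, the squalene epoxidase, went the opposite way and was highest in IGROV-1. It was at 196 and 147 CPM in IGROV-1 PromethION, 208 and 163 CPM on the MinION, 129 in COV362, 101 in COV504, 76.2 in OVKATE, 66.9 in SK-OV-3, 52.4 in OVMANA and 46.8 in OVTOKO. All 4 IGROV-1 libraries lay above the other lines. SQLE fell by 1.48 to 1.80 on the log2 scale in OVKATE, SK-OV-3, OVMANA and OVTOKO (edgeR adjusted p between 0.00193 and 0.00236), and by 0.84 in COV504, a call that DESeq2 did not make.

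SC5D, a sterol desaturase, and DHCR7, the reductase of the last step to cholesterol, changed in both directions. SC5D was at 47.0 and 49.0 CPM in IGROV-1 PromethION, 67.4 and 66.7 CPM on the MinION, 173 in SK-OV-3, 105 in COV504, 103 in OVKATE, 44.3 in OVMANA, 33.7 in COV362 and 18.5 in OVTOKO. The rise in SK-OV-3 (log2 fold change 1.62 ± 0.17 SE, edgeR adjusted p = 0.000158) held under all alternatives, and the calls in COV504 (1.06), OVKATE (0.81) and OVTOKO (-1.29) were not made by DESeq2. DHCR7 lay between 15.5 CPM (OVMANA) and 89.5 CPM (OVKATE), with 39.3 and 30.9 CPM in IGROV-1 PromethION. Its calls, higher in COV362, OVKATE and COV504 and lower in OVMANA, were not made by DESeq2. A gene on the opposite strand, AP002387.1, overlaps DHCR7 and reached 40.6 CPM.

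TM7SF2, a sterol reductase, was low in OVTOKO and SK-OV-3 only among these lines. It was at 59.4 and 54.1 CPM in IGROV-1 PromethION, 60.0 and 57.8 CPM on the MinION, 84.6 in OVKATE, 48.1 in OVMANA, 47.6 in COV504, 46.6 in COV362, 15.2 in SK-OV-3 and 13.3 in OVTOKO. TM7SF2 fell by 2.13 ± 0.24 (SE) on the log2 scale in SK-OV-3 (edgeR adjusted p = 0.000288) and by 2.01 ± 0.26 in OVTOKO (edgeR adjusted p = 0.000696). It overlaps VPS51 (27.8 to 59.2 CPM) on the same strand, so reads there could be split between the genes.

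FDFT1, the squalene synthase, was at 427 CPM in SK-OV-3, 306 in OVKATE, 233 in COV504, 192 in COV362, 154 in OVTOKO, 120 in OVMANA and 163 and 140 CPM in IGROV-1 PromethION. The rise in SK-OV-3 (log2 fold change 1.27 ± 0.18 SE, edgeR adjusted p = 0.00086) held under all alternatives. MSMO1, a sterol methyl oxidase, was highest in COV362 at 219 CPM, against 85.0 and 60.6 CPM in IGROV-1 PromethION (log2 fold change 1.63 ± 0.23 SE, edgeR adjusted p = 0.000783). It lay between 42.8 (OVTOKO) and 149 CPM (SK-OV-3) in the other lines.

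The remaining sterol genes varied little or were rare. LSS, the lanosterol synthase, lay between 28.4 and 69.9 CPM over all libraries, CYP51A1, the lanosterol demethylase, between 64.9 and 175 CPM and NSDHL, of sterol demethylation, between 27.3 and 67.2 CPM. Each was called in a single line, LSS and NSDHL in COV504 and CYP51A1 in OVKATE, and none of these calls was made by DESeq2. HSD17B7, a sterol ketoreductase, reached 5.94 CPM in OVKATE, had at most 2.16 CPM elsewhere, and was called in no line. A count of 0 in SK-OV-3 allows up to 1.52 CPM. Its pseudogene HSD17B7P2 was at 0.445 to 6.41 CPM and could share reads with it.

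Among the regulators, INSIG1 rose most in COV362 and COV504, the lines with the highest sums of the fatty acid arm, and SREBF2 was called higher in no line. INSIG1, itself an SREBP target in textbooks, was at 22.2 and 18.9 CPM in IGROV-1 PromethION, 37.4 and 40.8 CPM on the MinION, 16.6 in OVMANA, 24.3 in OVTOKO, 25.8 in SK-OV-3, 42.5 in OVKATE, 90.1 in COV362 and 109 in COV504. COV362 and COV504 stood above all other libraries, with log2 fold changes of 2.17 ± 0.19 (SE; edgeR adjusted p = 7.66e-05) and 2.33 ± 0.19 (edgeR adjusted p = 4.26e-05). The rise in OVKATE (0.75) was not called by DESeq2, without MinION replicate 1 or without PromethION replicate 2, and lay close to the MinION libraries.

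SREBF2, which encodes SREBP-2, was at 104 and 116 CPM in IGROV-1 PromethION, 88.6 and 119 CPM on the MinION, 98.3 in SK-OV-3, 94.3 in COV504, 75.7 in OVTOKO, 68.9 in OVMANA, 54.8 in COV362 and 39.1 in OVKATE. OVKATE, among the lines with high sums of mevalonate and sterol genes, had the lowest SREBF2 level. SREBF2 fell there by 1.80 ± 0.23 (SE) on the log2 scale (edgeR adjusted p = 0.000349). The falls in COV362 (-0.97) and OVMANA (-0.62) were not called by DESeq2, and that in OVMANA (edgeR adjusted p = 0.0499) was called in 2 of 11 alternatives.

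SREBF1, which encodes SREBP-1, was at 55.5 and 43.8 CPM in IGROV-1 PromethION, 42.3 and 45.4 CPM on the MinION, 115 in COV504, 66.2 in COV362, 63.3 in OVKATE, 59.3 in SK-OV-3, 43.4 in OVTOKO and 19.8 in OVMANA. COV504 was the highest and OVMANA the lowest. The log2 fold changes of these lines, 1.13 ± 0.19 (SE; edgeR adjusted p = 0.00183) and -1.27 ± 0.26 (edgeR adjusted p = 0.00573), were not called by DESeq2 (adjusted p = 0.131 and 0.2). Spearman's rho over the 7 lines was taken on TMM-scaled CPM, as a description without a test. With the other 28 members its median was 0.43 for SREBF1 (positive for 23), 0.34 for INSIG1 (positive for 23) and -0.04 for SREBF2 (positive for 11). All these points share the same 7 lines and library totals. STARD4, a carrier of sterols between membranes, lay between 6.94 CPM (OVTOKO) and 87.6 CPM (COV504), with 31.6 and 30.9 CPM in IGROV-1 PromethION, and was called by edgeR and not by DESeq2 in those lines.

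In the fatty acid arm, the desaturases FADS1, FADS2 and SCD and the synthase FASN mostly rose against IGROV-1, and ACLY fell in every line. ACLY, which makes cytosolic acetyl-CoA from citrate, was at 189 and 189 CPM in IGROV-1 PromethION, 155 and 188 CPM on the MinION, 123 in OVMANA, 114 in SK-OV-3, 110 in OVTOKO, 87.6 in COV504, 52.9 in COV362 and 39.1 in OVKATE. No other line reached the lowest IGROV-1 library. ACLY fell by 2.58 ± 0.20 (SE) on the log2 scale in OVKATE, 1.80 ± 0.18 in COV362 and 1.19 ± 0.17 in COV504 (edgeR adjusted p = 2.7e-05, 0.000162 and 0.000922). The falls in SK-OV-3 (-0.96), OVTOKO (-0.71) and OVMANA (-0.56) were not called by DESeq2.

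ACACA, the carboxylase that makes malonyl-CoA, varied little, between 18.3 CPM (OVKATE) and 40.6 CPM (OVMANA). It was called lower in OVKATE (log2 fold change -0.88), but not by DESeq2. FASN, the synthase that builds palmitate, was at 44.0 and 43.0 CPM in IGROV-1 PromethION, 46.6 and 46.0 CPM on the MinION, 69.9 in SK-OV-3, 106 in OVKATE, 112 in OVTOKO, 124 in COV362, 132 in OVMANA and 254 in COV504. The 4 IGROV-1 libraries agreed closely and lay below every other line. FASN rose most in COV504 (log2 fold change 2.47 ± 0.16 SE, edgeR adjusted p = 1.2e-05), was called in 5 lines and missed the threshold in SK-OV-3 (0.46, edgeR adjusted p = 0.0729). The call in OVKATE (0.99) was not made by DESeq2.

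SCD, which makes monounsaturated fatty acids, was at 200 and 205 CPM in IGROV-1 PromethION, 207 and 204 CPM on the MinION, 82.6 in OVKATE, 266 in OVMANA, 276 in OVTOKO, 497 in COV504, 522 in SK-OV-3 and 875 in COV362. OVKATE alone lay below IGROV-1. The log2 fold changes were 2.15 ± 0.14 (SE) in COV362, 1.22 ± 0.15 in COV504, 1.14 ± 0.15 in SK-OV-3 and -1.60 ± 0.17 in OVKATE, with edgeR adjusted p between 2.03e-05 and 0.000517. The rises in OVTOKO (0.52) and OVMANA (0.45, edgeR adjusted p = 0.0493) were not called by DESeq2.

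ELOVL6, which elongates palmitate, was at 22.6 and 21.9 CPM in IGROV-1 PromethION, 20.7 and 16.4 CPM on the MinION, 50.9 in OVKATE, 32.9 in COV504, 21.5 in COV362, 10.1 in SK-OV-3, 4.62 in OVTOKO and 0 in OVMANA. With 3 counts as the limit that a count of 0 allows, ELOVL6 was at least 13.9-fold lower in OVMANA than in IGROV-1 PromethION (edgeR adjusted p = 0.000372). The falls in OVTOKO (log2 fold change -2.18 ± 0.43 SE) and SK-OV-3 (-1.36 ± 0.34) and the rise in OVKATE (0.89 ± 0.25) were called by edgeR and not by DESeq2. OVKATE thus had the highest ELOVL6 level beside the lowest SCD level of the 7 lines.

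**Figure D3:**
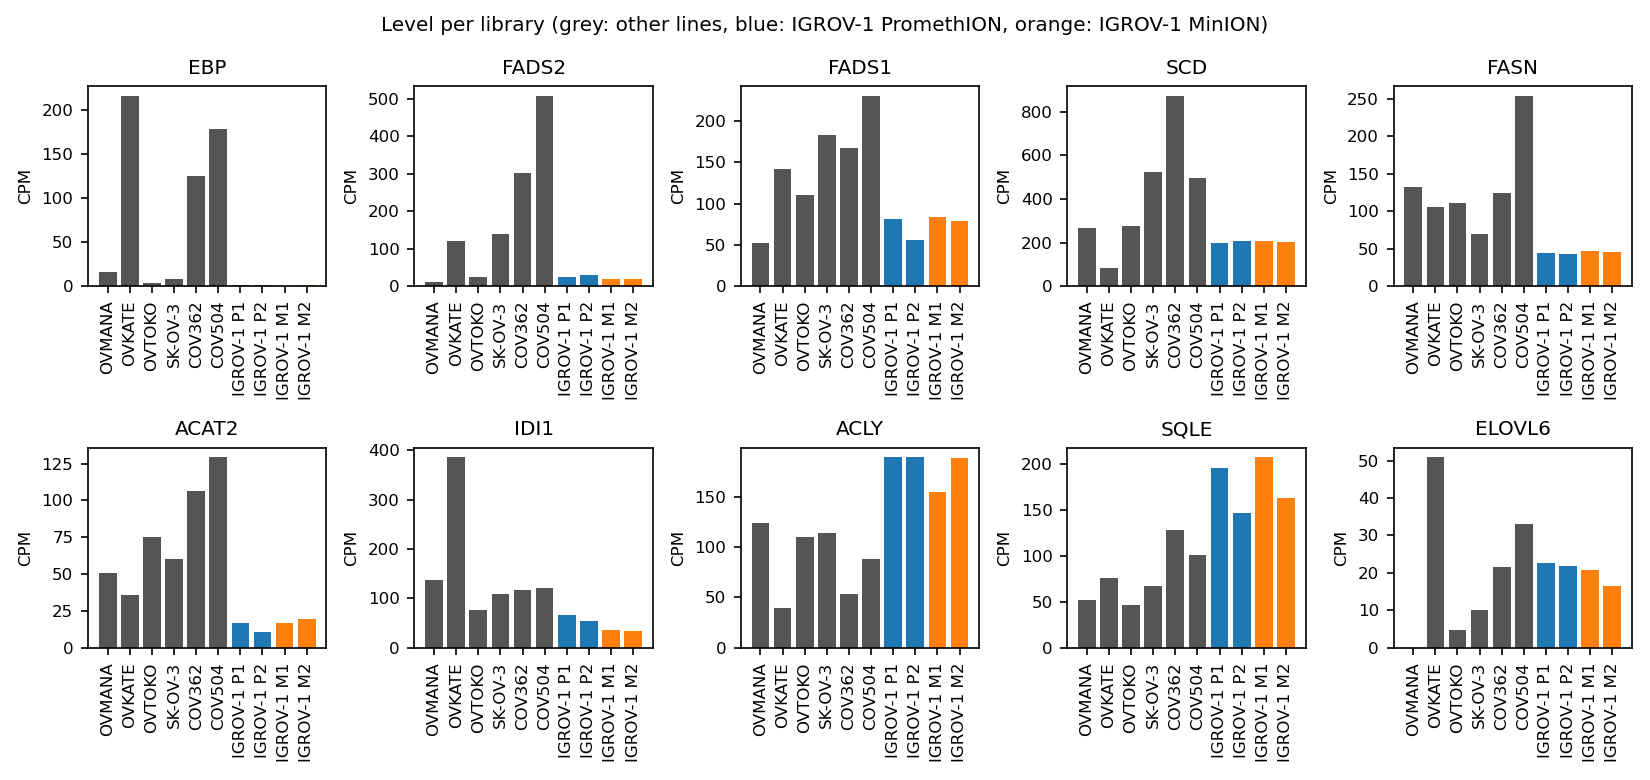
Level in CPM (vertical axes, each from 0) of 10 genes in each of the 10 libraries, with grey bars for the 6 other lines, blue for IGROV-1 PromethION (P1, P2) and orange for IGROV-1 MinION (M1, M2). The IGROV-1 libraries lie below all other lines for EBP, FASN and ACAT2, and above all of them for ACLY and SQLE.

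FADS1 and FADS2, the desaturases that introduce double bonds near the carboxyl end of polyunsaturated fatty acids, lie side by side on chromosome 11 on opposite strands (FADS1 chr11:61799625-61829318, minus; FADS2 chr11:61792980-61867354, plus; GRCh38). FADS1 was at 81.2 and 56.3 CPM in IGROV-1 PromethION, 83.7 and 79.1 CPM on the MinION, 51.8 in OVMANA, 110 in OVTOKO, 142 in OVKATE, 167 in COV362, 183 in SK-OV-3 and 231 in COV504. FADS2 was at 25.2 and 28.8 CPM in IGROV-1 PromethION, 20.5 and 20.1 CPM on the MinION, 11.8 in OVMANA, 24.3 in OVTOKO, 120 in OVKATE, 138 in SK-OV-3, 304 in COV362 and 509 in COV504. Both were lowest in OVMANA and highest in COV504, and FADS2 spread much wider, by 43.3-fold (95% counting interval 28.4 to 66.1) against 4.46-fold for FADS1 (3.59 to 5.53).

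FADS2 rose by 4.16 ± 0.17 (SE) on the log2 scale in COV504, 3.53 ± 0.17 in COV362, 2.13 ± 0.18 in SK-OV-3 and 1.85 ± 0.18 in OVKATE (edgeR adjusted p between 1.88e-06 and 8.86e-05). Its fall in OVMANA (-1.13 ± 0.27) was not called by DESeq2 or without MinION replicate 1, and in OVTOKO the value was -0.07 ± 0.24. FADS1 rose by 1.67 ± 0.21 in COV504, 1.32 ± 0.21 in COV362 and 1.19 ± 0.22 in SK-OV-3 (edgeR adjusted p between 0.00043 and 0.00289), and its calls in OVKATE (0.74) and OVTOKO (0.75) were not made by DESeq2. Over the 7 lines the log2 TMM-scaled CPM of the pair had a Pearson r of 0.92 and a Spearman rho of 0.89, given as a description.

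The long reads also placed these counts on transcripts. Of the 29 genes, 15 had a single transcript at 10% or more of the gene in any library and 14 had several, and all 48 such transcripts are annotated as protein coding. Transcript usage within a gene was tested in each line against IGROV-1 PromethION with edgeR's diffSpliceDGE and a Simes p per gene, adjusted over 4730 genes, and 17 members could be tested. FADS2 was called in OVKATE, SK-OV-3, COV362 and COV504, and SREBF1 and FDPS were called in OVKATE. This made 3 of 17 members in OVKATE (background 4.97% of genes) and 1 of 17 in SK-OV-3, COV362 and COV504 (backgrounds 2.07%, 2.98% and 2.56%). In OVMANA and OVTOKO 0 of 17 were called (backgrounds 2.75% and 1.35%).

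FADS2 counts were placed on transcripts with different first exons in different lines. FADS2-201 (422 codons) and FADS2-202 (444 codons) share 11 of their 12 exons and differ in the first, and FADS2-202 starts 11505 bases downstream of FADS2-201. Counts are estimates, and how reads within the exons common to both were divided was not tested. FADS2-202 was at 0.133 CPM in OVMANA, 0.761 in OVTOKO, 0.488 and 0.653 in IGROV-1 PromethION and 0.610 and 0.593 on the MinION, but at 79.4 in OVKATE, 76.4 in SK-OV-3, 177 in COV362 and 405 in COV504. The lines thus fell into those almost without FADS2-202 and those with much of it.

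As a share of FADS2 counts, FADS2-202 made up 1.13% in OVMANA (95% Wilson interval 0% to 14.9%, from 22 counts), 3.14% in OVTOKO (0.422% to 12.3%) and 2.10% ± 0.235 (SD, n = 2) in IGROV-1 PromethION. It made up 55.3% in SK-OV-3 (49.4% to 61.1%), 58.2% in COV362 (54.7% to 61.6%), 66.3% in OVKATE (60.4% to 72.2%) and 79.5% in COV504 (77.0% to 81.7%). The usage test gave adjusted p of 0.000137 in OVKATE, 0.000373 in SK-OV-3, 0.000143 in COV362 and 5.5e-05 in COV504 with edgeR, and these 4 calls held in each of 8 alternatives, with adjusted p up to 0.0362 (SK-OV-3 without PromethION replicate 1). FADS2-201 moved far less, with 11.6 CPM in OVMANA, 23.5 in OVTOKO, 25.6 ± 1.80 (SD, n = 2) in IGROV-1 PromethION, 38.8 in OVKATE, 60.3 in SK-OV-3, 101 in COV504 and 120 in COV362. The lines in which FADS2 rose are those in which most FADS2 counts were placed on FADS2-202. Over the 7 lines the log2 TMM-scaled CPM of FADS2 and the FADS2-202 share had a Pearson r of 0.93 and a Spearman rho of 0.86, given as a description. FADS2-202 counts enter both the FADS2 level and the share, so level and share are tied by construction.

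Both genes overlap in the annotation. The start of FADS2-201 lies inside FADS1-201 on the opposite strand, whereas the start of FADS2-202 lies outside every deposited FADS1 transcript. Whether counting used the strand is not given in the sources used here. FADS2 also overlaps FEN1 (46.0 to 166 CPM) on the same strand.

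**Figure D4:**
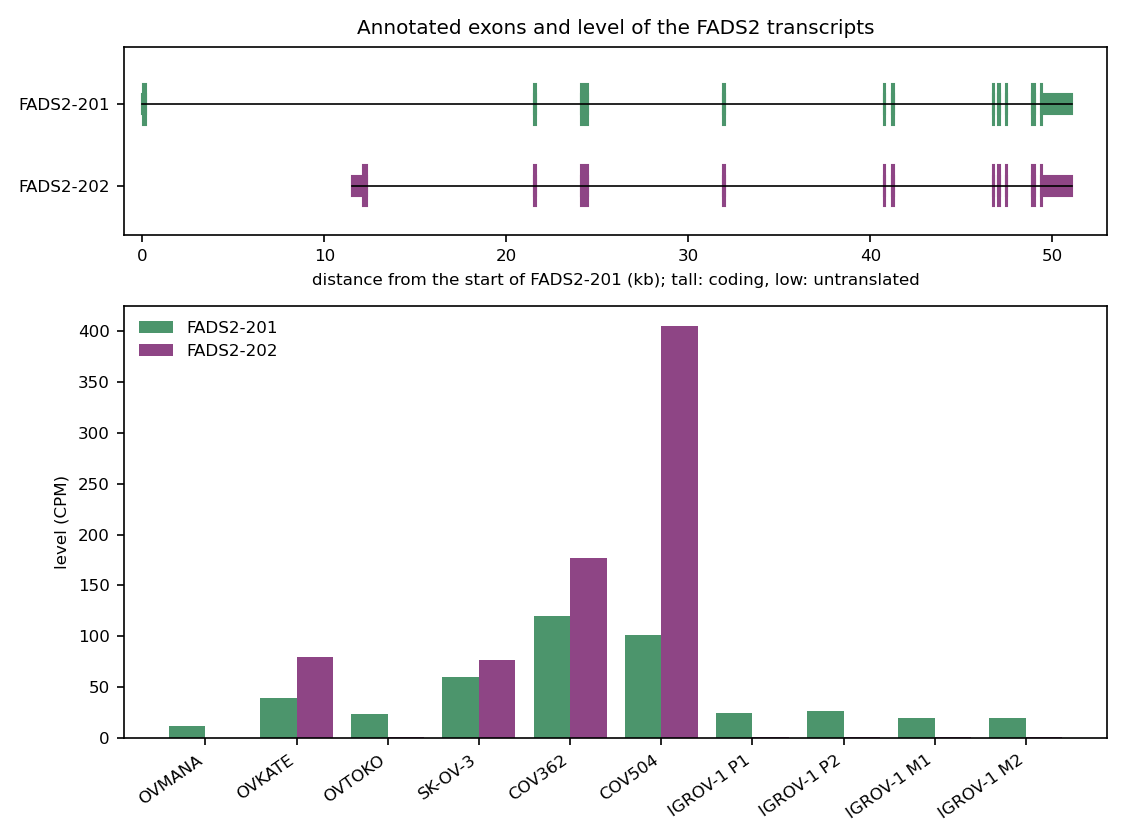
Top, annotated exons of both FADS2 transcripts by distance in kb from the start of FADS2-201 (tall boxes coding, low boxes untranslated). Bottom, level in CPM of FADS2-201 (green) and FADS2-202 (purple) in each of the 10 libraries; FADS2-202 reaches 76.4 to 405 CPM in OVKATE, SK-OV-3, COV362 and COV504 and stays under 1 CPM in the other 6 libraries.

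In OVKATE most SREBF1 counts were placed on a transcript with another start than in IGROV-1. SREBF1-201 has 1147 codons, and SREBF1-205 starts 17051 bases downstream and has 893 codons, 254 fewer. Of its 17 exons SREBF1-205 shares 16 with SREBF1-201, and only its first differs. That first exon, 17051 to 17464 bases from the start of SREBF1-201, contains a whole exon of SREBF1-201 (17277 to 17464). Both end at the same base, so reads that begin within that stretch fit either transcript. How reads within the shared exons and this stretch were divided was not tested. SREBF1-205 made up 63.2% of SREBF1 counts in OVKATE (95% Wilson interval 54.7% to 71.1%) and 42.1% in OVTOKO (32.1% to 53.9%). It made up 14.1% in OVMANA, 14.8% in SK-OV-3, 22.4% in COV362 and 16.4% in COV504, 10.1% and 13.1% in the IGROV-1 PromethION libraries and 10.8% and 4.93% in the MinION libraries. OVKATE and OVTOKO stand above all other libraries, and the intervals of OVKATE and OVTOKO do not overlap.

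The usage test called OVKATE (edgeR adjusted p = 0.0476) and not OVTOKO (edgeR adjusted p = 0.407). The call was lost when any IGROV-1 library was left out (edgeR adjusted p between 0.120 and 0.171) and in the fit of the PromethION libraries alone (edgeR adjusted p = 0.130). SREBF1 as a gene was not called in OVKATE (log2 fold change 0.05 ± 0.21 SE). SREBF1-205 was at 40.0 CPM there against 5.58 and 5.75 CPM in IGROV-1 PromethION, while SREBF1-201 was at 12.7 CPM against 41.8 and 37.3 CPM. SREBF1-202 differed between the IGROV-1 replicates, with 14.7% and 1.78% on the PromethION and 20.4% and 8.25% on the MinION. RAI1 overlaps SREBF1 on the opposite strand (15.3 to 41.8 CPM).

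**Figure D5:**
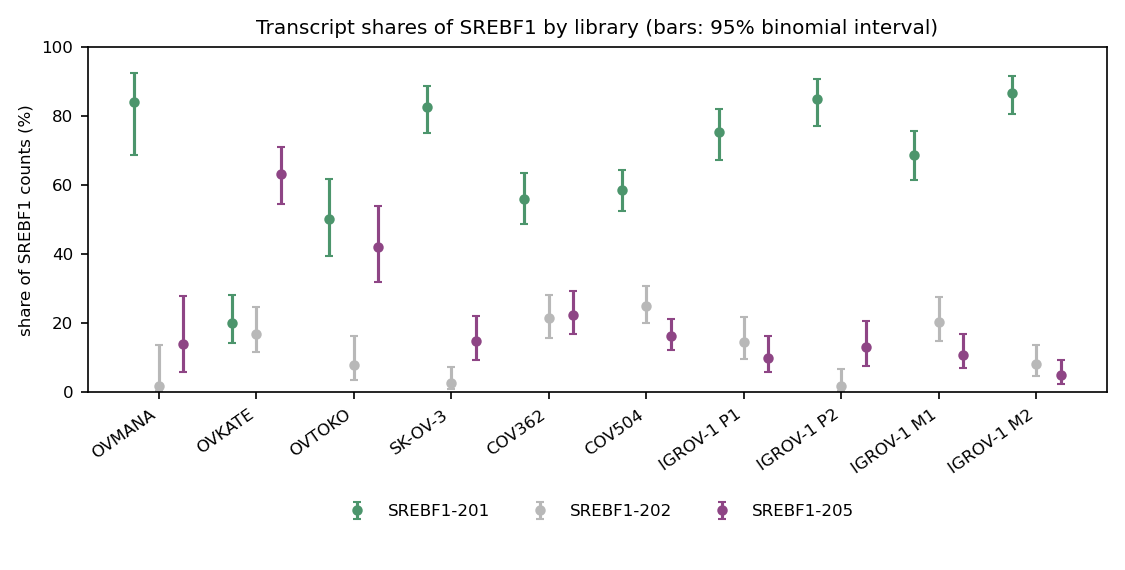
Share of SREBF1 counts in percent (vertical axis, 0 to 100) held by SREBF1-201 (green), SREBF1-202 (grey) and SREBF1-205 (purple) in each library; bars are 95% Wilson binomial intervals, which cover counting error only. SREBF1-205 is the largest share in OVKATE alone (63.2%).

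FDPS had its usage called in OVKATE (edgeR adjusted p = 0.0461), and the transcript that passed was FDPS-220. FDPS-220 encodes 248 codons, against 353 for FDPS-203, FDPS-206 and FDPS-221, and was rare. It made up 3.04% of FDPS counts in OVKATE (95% Wilson interval 1.95% to 4.58%), 2.92% in COV504 and 1.99% in COV362, against 0.164% and 0.210% in IGROV-1 PromethION and 0.845% and 1.32% on the MinION. The PromethION shares of IGROV-1 rest on 0.682 and 0.784 estimated counts, and the MinION shares on 6.95 and 9.11. The call was thus made against a reference close to 0 counts, which was higher on the other instrument. FDPS-220 also passed its own test in COV504 (edgeR adjusted p = 0.0326), where the gene was not called. The share of FDPS-203 was 55.5% in OVKATE, 54.5% in COV362 and 49.0% in COV504, where its own test was not passed, against 36.8% and 39.3% in IGROV-1 PromethION. In OVTOKO the share of FDPS-203 was 15.9% and its own test was passed (edgeR adjusted p = 0.0378), but the gene was called there with the replicate number as a block (edgeR adjusted p = 0.0309) and not without it (edgeR adjusted p = 0.0728). The FDPS call in OVKATE was lost without any of the IGROV-1 libraries, in the PromethION libraries alone and without a filter (edgeR adjusted p between 0.0782 and 0.293).

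The instruments were compared within IGROV-1, on 2 libraries each. By edgeR, 0 of 27 members with enough counts were called between MinION and PromethION, where 0.817% of 10041 genes were (0.110% higher and 0.707% lower). Without adjustment, 8 of the 27 had p under 0.05 by edgeR (background 16.5% of genes) and 2 by DESeq2 (background 6.15%), which also called 0. EBP and HSD17B7 had too few counts for this test. The lowest adjusted p belonged to IDI1 and INSIG1. IDI1 was lower on the MinION (34.9 and 34.6 CPM against 65.8 and 53.3, log2 fold change -0.82 ± 0.17 SE, edgeR adjusted p = 0.0763), and INSIG1 was higher (37.4 and 40.8 CPM against 22.2 and 18.9, 0.88 ± 0.18, edgeR adjusted p = 0.0782). For both genes the instruments did not overlap. Without PromethION replicate 1, which leaves 1 library on that side, the log2 fold change of INSIG1 was 1.00. Transcript usage was called for 0 of 9 members between instruments, where 5.98% of genes were called. FADS2 was not among the 9, and FDPS was tested on 4 transcripts, against 6 in the lines. With all 10 libraries in the fit, 0 of 17 members were called, where 123 of 4730 genes were. The mean FADS2-202 share was 2.10% on the PromethION and 2.97% on the MinION.

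Other genes of the pathway were described from a separate list of 28, of which 27 were tested for level. Against IGROV-1, edgeR called 11 in OVMANA (5 higher, 6 lower; 40.7%, background 35.4%), 18 in OVKATE (7 and 11; 66.7%, background 49.2%), 13 in OVTOKO (10 and 3; 48.1%, background 34.1%), 14 in SK-OV-3 (9 and 5; 51.9%, background 41.8%), 15 in COV362 (7 and 8; 55.6%, background 42.5%) and 14 in COV504 (7 and 7; 51.9%, background 43.5%). DESeq2 called fewer: 8 in COV504 (5 higher, 3 lower, 29.6%, background 13.6%), 8 in OVKATE (4 higher, 4 lower, 29.6%, background 16.2%) and 6 in COV362 (4 higher, 2 lower, 22.2%, background 12.2%). It called 4 in OVMANA (all higher, 14.8%, background 11.1%), 3 in SK-OV-3 (2 higher, 1 lower, 11.1%, background 12.8%) and 3 in OVTOKO (all higher, 11.1%, background 10.1%). ABCA1, the exporter of cholesterol, and ME1, the malic enzyme that supplies NADPH for fatty acid synthesis, were called higher in all 6 lines by edgeR and by DESeq2. ABCA1 was at 0.427 and 0.430 CPM in IGROV-1 PromethION and at 23.9 (COV362) to 76.5 CPM (SK-OV-3) elsewhere. ME1 had 0 counts in all 4 IGROV-1 libraries and 11.2 (OVMANA) to 75.2 CPM (OVTOKO) in the others, at least 17.5-fold to 117-fold higher than the 0.643 CPM that 0 counts in both PromethION libraries allow.

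THRSP, a small protein linked to lipogenesis, was at 102 CPM in OVKATE and 1.18 CPM in COV362 and had 0 counts in all other libraries. TMEM97, a binding partner of NPC1, was called lower in 5 lines by edgeR and in 4 of them by DESeq2, which missed OVMANA (DESeq2 adjusted p = 0.0759), with 132 and 143 CPM in IGROV-1 PromethION and 29.9 to 58.3 CPM in those lines. Among other genes that edgeR called in 4 or more lines, MYLIP (a ligase that targets the LDL receptor) and LBR (a sterol reductase) were lower in 4 each, of which DESeq2 called 0 for MYLIP and 1 for LBR. ACSL1 and ACSL3 (acyl-CoA synthetases), ELOVL5 (an elongase of polyunsaturated fatty acids) and LPIN1 (a phosphatidate phosphatase) changed in both directions by edgeR. Of these, DESeq2 called ELOVL5 higher in 2 lines and lower in 1, ACSL3 higher in 2, and ACSL1 and LPIN1 in none. ELOVL5 was at 323 CPM in COV504, 235 in COV362, 228 in SK-OV-3 and 44.0 in OVKATE, against 118 and 122 CPM in IGROV-1 PromethION.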

How the data were processed

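The members, gene lists and tests were chosen with earlier results of these data known. Members may all be named, with fuller values for those of widest range over the lines, those called in 4 or more comparisons, the regulators, the FADS1 and FADS2 pair and those with usage calls; other pathway genes are named where called in 4 or more lines, and THRSP was added after its values were seen. Some pathway genes that this rule names are counted in the list but not reported here.

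RNA of 7 lines was measured in 10 nanopore libraries. Per transcript, the authors deposited estimated counts, which need not be whole, and values named TPM, which are those counts scaled to a common library total and not divided by length, that is CPM. The submitters' processing notes name minimap2 2.24-r1122 and GRCh38; for the quantifier settings, annotation release and use of strand nothing is stated in the sources used here. Transcript names and exons came from GENCODE 29, which held all 96 member transcripts.

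Estimated counts were summed per gene, rounded, and tested with edgeR 4.0.16 (R 4.3.3; TMM, filterByExpr, quasi-likelihood F test, Benjamini-Hochberg, two-sided) over all 10 libraries, or the 4 IGROV-1 libraries for the instruments. SE came from the fold change and F statistic. DESeq2 1.42.0 was an alternative, with size factors, no filter, left-out libraries, a replicate block, joined identifiers left out and PromethION libraries alone; leaving out mitochondrial ribosomal RNA was chosen after seeing the data. The libraries held 1729782 to 3666224 counts, and intervals and floors (3 counts) cover counting error only. On simulated counts for 13030 genes, the line test recovered 38.0% of genes changed by 1 on the log2 scale, where 10.6% of calls were false, and 89.5% of those changed by 2. The usage test recovered 22.5% of 200 genes with a transcript changed by 2, over 4730 genes.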

Additional observations from a re-analysis of the deposited data

How the results depend on the processing

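With DESeq2 in place of edgeR, the members called fell to 8 in COV504, 7 in OVKATE, 7 in OVMANA, 5 in OVTOKO and 9 in SK-OV-3, with 10 in COV362, and the calls over all genes to 1587 in COV362 (edgeR 5544), 1771 in COV504 (5672), 2116 in OVKATE (6405), 1442 in OVMANA (4613), 1314 in OVTOKO (4443) and 1672 in SK-OV-3 (5446); among the lines it called 19 members and 3800 genes, against 10590 by edgeR. Leaving out each IGROV-1 library in turn gave 13 to 14 members in COV362, 16 to 21 in COV504, 16 to 20 in OVKATE, 8 to 12 in OVMANA, 10 to 12 in OVTOKO, 12 to 15 in SK-OV-3 and 22 to 29 among the lines. The share of all genes called was then 31.9% to 40.9% in COV362, 33.7% to 41.6% in COV504, 41.0% to 47.4% in OVKATE, 24.1% to 35.5% in OVMANA, 22.2% to 33.8% in OVTOKO, 32.0% to 40.3% in SK-OV-3 and 62.6% to 88.1% among the lines. Between instruments, leaving out a library leaves 1 on that side, so no count is given. Members with usage called in any line numbered 1 (FADS2) without each IGROV-1 library and in the PromethION libraries alone, and between instruments 0. Of the member values compared under each alternative, 48 lost their call with DESeq2, 19 without MinION replicate 1 and 2 without mitochondrial ribosomal RNA, and 24 gained a call under the replicate block. None was reversed.

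The shared replicate numbers of IGROV-1 give 2 pairs, and the labels do not say that a number marks a shared culture. Across 10041 genes the difference between replicates correlated between the instruments at r = 0.37. With the replicate block, 6 members were called between instruments (4 higher, 2 lower on the MinION) and 1978 genes in all, against 82 without it. The 6 were 22.2% of the members tested, close to the 19.7% of all genes called with the block. In the lines the block gave 18 members (COV362, with 51.8% of all genes called), 23 (COV504, 52.8%), 22 (OVKATE, 57.3%), 17 (OVMANA, 45.4%), 16 (OVTOKO, 44.4%) and 16 (SK-OV-3, 51.2%), and a usage call of FDPS in OVTOKO (edgeR adjusted p = 0.0309). Each other line has 1 library, so differences between its own cultures were not measured, and genes of few counts, such as EBP in IGROV-1 and HSD17B7, have wide errors.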
